A study of Homo sapiens with 14 samples.

Results

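Replication histone cluster genes were taken as every entry of both RNA tables whose symbol starts with HIST1H, HIST2H, HIST3H or HIST4H. That gave 71 of 24461 genes with a usable name: 6 for the linker histone H1, 17 for H2A, 20 for H2B, 14 for H3 and 14 for H4. RefSeq places 56 of them in the HIST1 cluster on chromosome 6, 11 under HIST2 names and 3 under HIST3 names on chromosome 1, and 1, HIST4H4, on chromosome 12. RNA-seq covered 12 libraries of U251MG, an established human glioblastoma line that the labels give as wild type, with 3 libraries in each of 4 groups. Radioresistant cells had been irradiated with X-rays in 30 fractions of 2 Gy to a total of 60 Gy, and control cells of the same line were their comparison. The labels name no second radioresistant derivation, so the irradiation and other differences between these cultures cannot be told apart. The shIFI16 and shNC cells were radioresistant cells that carried a hairpin against IFI16, a nuclear DNA sensor, or the hairpin named shNC. With a single hairpin against IFI16 in the labels and no rescue, loss of IFI16 and off-target effects of that hairpin cannot be told apart. One ATAC-seq library of radioresistant cells and one of control cells gave positions of open chromatin.

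Replication histones package newly made DNA. H2A, H2B, H3 and H4 form the core around which DNA winds, and H1 binds the linker between cores. Their genes lie in clusters of many near-identical copies and are transcribed mainly in S phase with the coactivator NPAT. Their mRNAs are unusual in ending in a stem-loop, bound by SLBP, in place of a poly(A) tail. Some of the same genes can also give polyadenylated mRNA, a form known from differentiated and non-dividing cells. The labels name an mRNA library kit but not the step that selected the RNA. Levels below are in TPM (transcripts per 1000000, a value per length of gene), so how fully RNA without a poly(A) tail was captured is not known.

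Measured levels of replication histone RNA were low. All 71 genes together made up 0.0662% of the TPM in radioresistant libraries and 0.0334% in control libraries, and 0.0372% in shIFI16 libraries and 0.0346% in shNC libraries. Of the 71, 10 were listed at 0 in all 12 libraries and 18, those included, stayed under 1 TPM throughout, among them 5 of the 14 H4 genes. The RNA that was present came from few genes. HIST1H2BK, HIST1H2AC and HIST3H2A, the highest 3 in every group, gave 48.2% of the summed level in radioresistant and 49.4% in control cells, and 40.7% in shIFI16 and 39.6% in shNC cells. HIST2H3A and HIST2H3C had identical values in all 12 libraries, to within 1e-06 TPM, so this pair of near-identical copies counts as 1 measurement. Values of other copies that share sequence are uncertain in the same way.

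The depth behind TPM is unknown, and between 12361 and 13016 genes reached 1 TPM in a library. IFI16 stood at 7.68, 7.90 and 6.71 TPM in shIFI16 libraries, against 125, 140 and 127 TPM in shNC libraries, as the labels have it. Of 8 glioma and astrocyte markers 7 averaged 1 TPM or more in each group. Their summed level was 6597 to 7178 TPM in radioresistant and 15077 to 15322 TPM in control libraries, and 5503 to 6424 TPM in shIFI16 and 7362 to 7980 TPM in shNC libraries. Sums over markers of other cell types moved between groups as well. Over 5 immune markers, of which CD3E was listed at 0 in all 12 libraries and at most 2 averaged 1 TPM in a group, the sum was 19.4 to 23.5 TPM in radioresistant and 15.3 to 20.6 TPM in control libraries, and 14.1 to 17.8 TPM in shIFI16 and 37.5 to 40.4 TPM in shNC libraries. Over 4 epithelial markers it was 39.4 to 55.5 TPM in radioresistant and 50.9 to 71.9 TPM in control libraries, and 172 to 183 TPM in shIFI16 and 65.1 to 66.7 TPM in shNC libraries, with CDH1 at 0 in control and shIFI16 libraries. Over 4 neuron markers it was 9.66 to 12.9 TPM in radioresistant and 17.1 to 23.5 TPM in control libraries, and 12.1 to 13.0 TPM in shIFI16 and 19.1 to 21.1 TPM in shNC libraries, with STMN2 at 0 throughout. Over 4 endothelial markers it was 4.66 to 5.07 TPM in radioresistant and 12.4 to 14.2 TPM in control libraries, and 11.7 to 14.2 TPM in shIFI16 and 6.02 to 6.64 TPM in shNC libraries, and 4 oligodendrocyte markers summed to 1.02 TPM or less. The part of these markers in the histone levels was not tested. Whether replicates came from separate cultures is not in the labels; the p-values then rest on library-to-library spread alone, part of which can be technical. In bulk RNA, a change in the number of cells in S phase and a change in RNA per cell cannot be told apart.

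The first comparison set radioresistant cells against control cells. Replication histone genes rose widely and none fell: 20 of 41 tested genes passed the threshold upward (limma, Benjamini-Hochberg adjusted p under 0.05), or 19 with HIST2H3A and HIST2H3C counted once, and 0 downward. The 20 include HIST3H2BB, which was under 1 TPM in every control library. Its direction was set by the filter for testing, 1 TPM in 3 or more of 6 libraries. Over all 13127 genes tested, 16.9% were raised and 27.0% lowered. Median log2 difference was 0.65 over the 41 tested histone genes and -0.11 over all genes tested. At an unadjusted p under 0.05, 23 of the 41 differed, all 23 upward, against 52.2% of all genes in either direction. The lowest radioresistant library lay above the highest control library in 21 of the 41, HIST3H2BB included. The reverse was seen in 0, where 21.5% and 31.7% of all tested genes were separated in these directions.

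Summed over all 71 genes, the level was 740, 690 and 557 TPM in radioresistant libraries, against 341, 341 and 320 TPM in control libraries. The groups did not overlap, and the ratio of the means was 1.98. Every class took part. H4 stood highest by ratio, with 66.6, 68.4 and 60.6 TPM in radioresistant and 22.7, 17.5 and 26.3 TPM in control libraries, a ratio of 2.94. H2A summed to 252 ± 41.5 TPM in radioresistant and 117 ± 4.98 TPM in control cells (SD, n = 3 each), a ratio of 2.15. The ratios of H2B, H1 and H3 were 1.81, 1.72 and 1.71. In each of the 5 classes all radioresistant libraries lay above all control libraries, as the plot of class sums by library shows. No p is given for these sums, since the genes were chosen with earlier results in view.

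**Figure D1:**
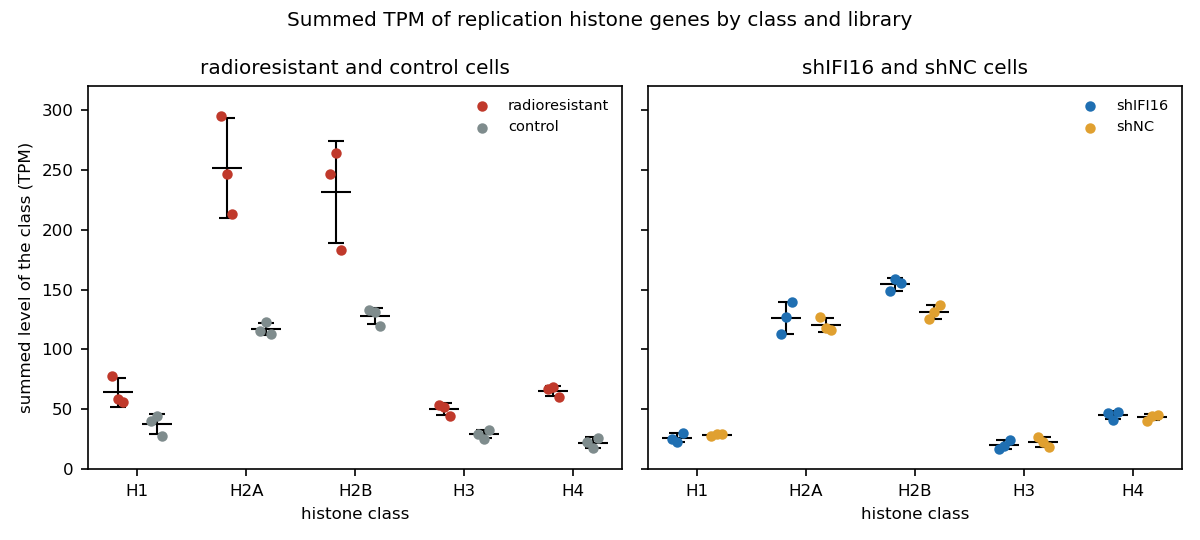
Summed TPM of the replication histone genes of each class (x axis) in each library (points), with the mean and SD as black bars, for radioresistant and control cells on the left and shIFI16 and shNC cells on the right. Radioresistant libraries lie above control libraries in all 5 classes, while among the hairpin cells the groups separate only for H2B.

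Among H2A genes, HIST1H2AC showed the change most plainly. It stood at 137, 122 and 92.3 TPM in radioresistant libraries, against 36.6, 43.0 and 43.9 TPM in control libraries. The lowest radioresistant value lay well above the highest control value, and the log2 difference was 1.47 (SE 0.15, limma adjusted p = 3.5e-05). HIST2H2AA3, an H2A gene of the chromosome 1 cluster with a near-identical copy beside it, had 44.9, 34.6 and 29.2 TPM in radioresistant libraries, against 9.88, 12.2 and 13.6 TPM in control libraries. Its groups did not overlap either, and it rose by 1.52 on the log2 scale (SE 0.17, limma adjusted p = 7.0e-05). HIST3H2A rose less, with 72.8, 59.7 and 60.6 TPM in radioresistant libraries and 46.9, 38.3 and 27.3 TPM in control libraries (log2 difference 0.79, SE 0.18, limma adjusted p = 0.0052). HIST1H2AL, near 3 TPM, was the 4th of the 11 tested H2A genes to pass (log2 difference 0.55, limma adjusted p = 0.045). That call was lost when control replicate 1 or 2 or any radioresistant library was left out, with limma adjusted p up to 0.16. A pseudocount of 0.1, no filter and a replicate block lost it too (limma adjusted p = 0.052, 0.086 and 0.059). HIST2H2AC did not pass, at 11.3 ± 2.49 TPM in radioresistant and 8.38 ± 0.987 TPM in control cells (SD, n = 3 each, limma adjusted p = 0.10), but did without radioresistant replicate 3 (limma adjusted p = 0.024) and under both other scalings (0.038 and 0.022).

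H2B held the most calls, with 7 of 12 tested genes raised. HIST1H2BK, the most abundant replication histone gene, stood at 141, 165 and 107 TPM in radioresistant libraries, against 96.4, 87.6 and 74.8 TPM in control libraries. It was higher in every radioresistant library, with a modest log2 difference of 0.65 (SE 0.16, limma adjusted p = 0.0075). HIST1H2BD had 33.2, 28.2 and 21.5 TPM in radioresistant libraries, against 7.25, 11.5 and 12.1 TPM in control libraries, and rose by 1.35 (SE 0.21, limma adjusted p = 0.00045). HIST2H2BC, which RefSeq annotates as a transcribed pseudogene, had 18.9, 15 and 16.5 TPM in radioresistant and 4.59, 3.84 and 5.78 TPM in control libraries. Its rise of 1.64 (SE 0.16, limma adjusted p = 2.4e-05) was among the steadiest of the set. HIST1H2BC stood at 9.26, 7.88 and 6.08 TPM in radioresistant libraries, against 1.28, 0 and 2.61 TPM in control libraries, and rose by 2.1 (SE 0.43, limma adjusted p = 0.0062). At such low control levels its size depended on the pseudocount, and with 0.1 in place of 1 it was 3.42 with a limma adjusted p = 0.10. HIST2H2BE, HIST2H2BF and HIST3H2BB, all under 7 TPM, also passed, with log2 differences between 0.67 and 1.05. Of these, HIST3H2BB was under 1 TPM in every control library and entered the test only through radioresistant libraries, so the filter set its direction. HIST2H2BE lost the call without control replicate 2 or radioresistant replicate 1 or 2, with limma adjusted p up to 0.059. HIST2H2BF lost it without control replicate 2 or 3 or radioresistant replicate 1, with limma adjusted p up to 0.068, and with no filter (0.054). HIST1H2BH did not pass, at 16.4, 21.7 and 9.08 TPM in radioresistant and 8.72, 12.5 and 10.1 TPM in control libraries, but did without radioresistant replicate 3 (limma adjusted p = 0.013).

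H4 and H3 genes were lower in level and as widely raised. HIST2H4B carried most of the H4 signal, with 49.9, 45.5 and 34.3 TPM in radioresistant libraries and 16.8, 15.1 and 16.1 TPM in control libraries. The groups were far apart and the log2 difference was 1.36 (SE 0.15, limma adjusted p = 5.3e-05). HIST1H4H had 6.63, 5.33 and 11.4 TPM in radioresistant libraries, against 0, 0.620 and 2.31 TPM in control libraries, the largest fitted rise of any tested member at 2.27 (SE 0.44, limma adjusted p = 0.0049). That call too was lost with a pseudocount of 0.1 (limma adjusted p = 0.060). HIST1H4D passed narrowly (log2 difference 1.33, limma adjusted p = 0.043), but not without control replicate 1 or without any of the radioresistant libraries, where the limma adjusted p reached 0.15. Nor did it pass with a pseudocount of 0.1 or with no filter (limma adjusted p = 0.18 and 0.062). HIST1H4C and HIST1H4E were higher in the mean and missed the threshold (limma adjusted p = 0.075 and 0.087). HIST1H4C passed without control replicate 3 (limma adjusted p = 0.011) or radioresistant replicate 2 (limma adjusted p = 0.046), and HIST1H4E without radioresistant replicate 1 (limma adjusted p = 0.022). With quantile normalization HIST1H4C passed as well (limma adjusted p = 0.043). Of 10 tested H3 genes 5 rose, or 4 of 9 with HIST2H3A and HIST2H3C counted once, among them HIST1H3H with 15.8, 12.5 and 7.94 TPM in radioresistant and 3.96, 2.83 and 7.48 TPM in control libraries (log2 difference 1.22, SE 0.31, limma adjusted p = 0.013). Without control replicate 1 its limma adjusted p was 0.064, and without radioresistant replicate 2 it was 0.054. HIST1H3G rose by 1.04, HIST1H3D by 1.36, and the indistinguishable pair HIST2H3A and HIST2H3C by 1.37, each from a control mean under 4 TPM. The RefSeq span of HIST1H3D holds the whole of the H2A gene HIST1H2AD, with the same start and strand. How reads were divided between those genes is not known. The same holds for HIST2H4B, whose RefSeq span (chromosome 1, 149844488 to 149861240) holds the whole of HIST2H2BC and of HIST2H3A. HIST2H3A lies on the other strand, and the strand setting is unknown, so these calls may not be separate measurements. HIST1H3E went the other way in the mean, 5.38 ± 3.63 TPM in radioresistant and 8.63 ± 2.17 TPM in control cells (SD, n = 3 each), without passing (limma adjusted p = 0.29).

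H1 came down to a single gene. HIST1H1C, which encodes the linker histone H1.2, had 77.2, 56.5 and 53.4 TPM in radioresistant libraries, against 38.9, 38.8 and 27.2 TPM in control libraries. Its groups did not overlap and it rose by 0.82 (SE 0.18, limma adjusted p = 0.0039). HIST1H1E, at 1.11 ± 0.475 TPM in radioresistant and 1.27 ± 1.37 TPM in control cells (SD, n = 3 each), was the only other H1 gene tested here and did not pass (limma adjusted p = 0.96). HIST1H1B was too low for the test in this comparison, and HIST1H1D averaged 0.0382 TPM in radioresistant cells and was listed at 0 in every control library.

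**Figure D2:**
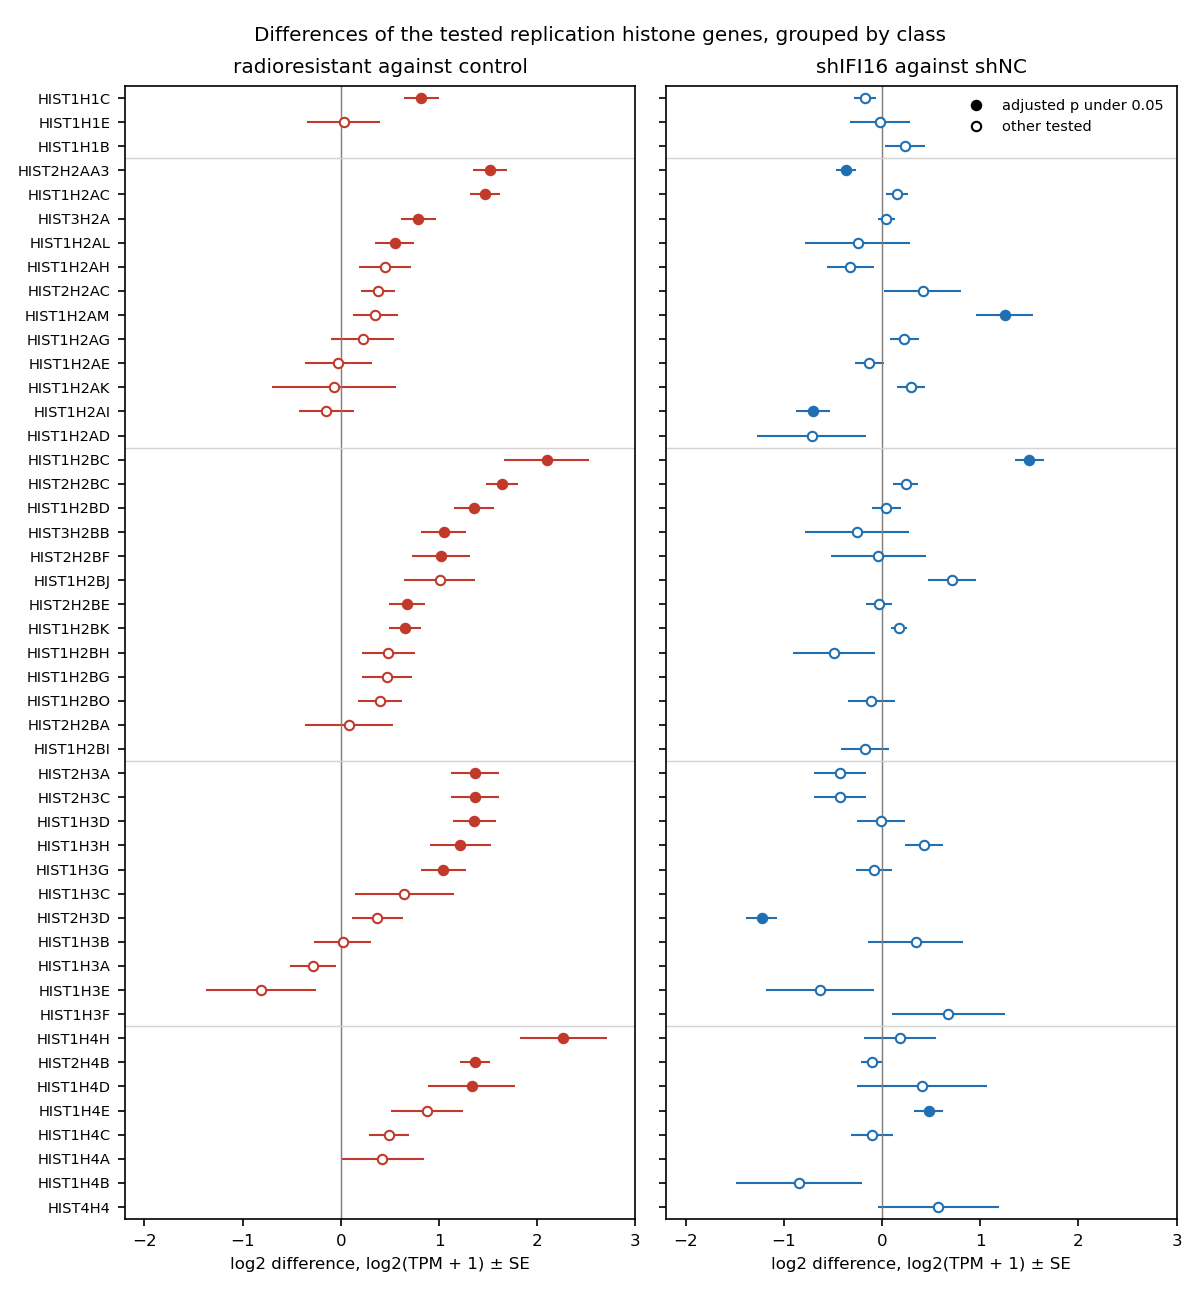
Log2 differences with SE for each replication histone gene tested in at least 1 comparison, grouped from top to bottom as H1, H2A, H2B, H3 and H4, for radioresistant against control cells on the left and shIFI16 against shNC cells on the right. Filled points passed the adjusted threshold: 20 on the left, all above 0, and 6 on the right, 3 on each side of 0. The filter set the direction of HIST3H2BB on the left and of HIST1H2AI on the right.

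In the HIST1 cluster 11 of 29 tested genes were raised, and under HIST2 names 7 of 10, or 6 of 9 with HIST2H3A and HIST2H3C counted once. Under HIST3 names HIST3H2A was raised, and HIST3H2BB passed with its direction set by the filter. Genes with a long RefSeq span, over 1000 bases, are those for which a longer transcript is annotated beyond the compact histone unit. Of these, 7 of 9 tested rose, with a median log2 difference of 1.02, against 13 of 32 with a shorter span, with a median of 0.52, and 16.9% of all genes. The 13 hold both HIST2H3A and HIST2H3C and also HIST3H2BB. They also hold HIST2H2BC, which like HIST2H3A lies inside the span of HIST2H4B, a raised gene of long span. The groups are therefore not wholly separate loci. The part of expression level in this contrast was not tested. Non-histone genes that lie between the first and last HIST1 gene (chromosome 6, 25726063 to 27893891, GRCh38) did not share one direction. Of 14 tested, 5 rose and 5 fell, beside 16.9% and 27.0% of all genes, with a median log2 difference of -0.11. The genes that rose there were BTN2A1, BTN3A1, BTN3A2 and BTN3A3, which encode butyrophilins, and TRIM38. After knockdown of IFI16, 2 of 13 tested genes of this interval rose and 5 fell, beside 16.6% and 16.3% of all genes. Those butyrophilin genes fell, by 0.36, 0.64, 0.61 and 0.65 in that order, and TRIM38 did not pass (limma adjusted p = 0.30). ABT1 and ZNF322 rose by 0.24 and 0.30. The other fall was LOC100131289, listed at 0 in shIFI16 libraries, so the filter set its direction. This interval was chosen after the values had been seen.

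HIST1H2AC and HIST1H2BC lie head to head in the HIST1 cluster, with starts 246 bases apart, an arrangement found for 11 H2A and H2B pairs of the set (194 to 248 bases). The stretch between them is printed because both genes that share it rose in radioresistant cells, while HIST1H2BC alone passed the test after the knockdown. Promoters of HIST2H2AA3, HIST2H3D and HIST1H4H are shown beside it, for an H2A gene raised in radioresistant cells and lowered after the knockdown, an H3 gene lowered after the knockdown, and the H4 gene with the largest rise. Each runs from 250 bases before to 50 bases after the start in RefSeq (GRCh38.p14), 5′ to 3′ on the strand of the gene. Positions are chr6:26123922-26124221 (plus strand, HIST1H2AC), chr1:149842701-149843000 (minus, HIST2H2AA3), chr1:149813644-149813943 (minus, HIST2H3D) and chr6:26285485-26285784 (minus, HIST1H4H). Capitals mark, on either strand, the letters CCAAT of a CCAAT box, the letters TATAAA of a TATA box and the octamer ATTTGCAT.
HIST1H2AC: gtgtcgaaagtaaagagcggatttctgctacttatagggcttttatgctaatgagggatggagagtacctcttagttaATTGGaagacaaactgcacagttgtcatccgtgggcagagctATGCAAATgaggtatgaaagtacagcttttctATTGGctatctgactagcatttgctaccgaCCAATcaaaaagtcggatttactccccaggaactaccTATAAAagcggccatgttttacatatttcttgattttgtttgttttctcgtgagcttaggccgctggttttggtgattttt
HIST2H2AA3: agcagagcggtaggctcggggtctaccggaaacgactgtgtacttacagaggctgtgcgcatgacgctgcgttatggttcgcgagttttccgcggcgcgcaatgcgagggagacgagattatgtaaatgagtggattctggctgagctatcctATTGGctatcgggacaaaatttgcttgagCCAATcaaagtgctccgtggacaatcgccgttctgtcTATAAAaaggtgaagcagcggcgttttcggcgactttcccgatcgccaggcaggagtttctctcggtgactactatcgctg
HIST2H3D: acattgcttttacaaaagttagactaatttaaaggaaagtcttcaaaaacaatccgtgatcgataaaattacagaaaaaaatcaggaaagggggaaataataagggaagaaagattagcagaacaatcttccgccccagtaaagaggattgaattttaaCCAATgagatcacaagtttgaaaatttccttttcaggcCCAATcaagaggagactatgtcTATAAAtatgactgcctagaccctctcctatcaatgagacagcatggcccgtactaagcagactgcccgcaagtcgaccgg
HIST1H4H: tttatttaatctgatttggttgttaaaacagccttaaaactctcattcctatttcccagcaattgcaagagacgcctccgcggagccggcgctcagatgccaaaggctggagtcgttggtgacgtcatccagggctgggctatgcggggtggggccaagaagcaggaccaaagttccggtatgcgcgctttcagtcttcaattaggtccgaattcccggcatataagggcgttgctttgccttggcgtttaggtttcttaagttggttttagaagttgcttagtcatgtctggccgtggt

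In the shared stretch CCAAT matched 172, 98 and 68 bases before the start of HIST1H2AC, TATAAA 31 bases before it and ATTTGCAT 130 bases before it. The start of HIST1H2BC lies at the opposite end of that window, on the other strand. HIST2H2AA3 and HIST2H3D had TATAAA at the same 31 bases, and the window of HIST1H4H held none of these letters. Of the 71 genes 63 had a promoter entry. CCAAT occurred in 54 of them, in every H1, H2A, H2B and H3 window and in 3 of 12 H4 windows, against 35.7% of 27305 promoters of all genes. TATAAA occurred in 42 of 63, against 12%. ATTTGCAT, the octamer letters, occurred in 11 of 15 H2A and 14 of 18 H2B windows but in 0 H1, 1 H3 and 0 H4 windows, against 1.80% of all promoters. That H3 window is the one of HIST1H3D, whose start is also that of the H2A gene HIST1H2AD. These are matches of letters on either strand, and neighbours in a head-to-head pair share some of them.

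The second comparison set shIFI16 cells against shNC cells, both of them radioresistant. Here most replication histone genes did not pass the test: 3 of 42 tested genes rose and 3 fell, with a median log2 difference of -0.03. The 3 that fell include HIST1H2AI, under 1 TPM in every shIFI16 library, so the filter set its direction. The counts depended on single libraries: without shIFI16 replicate 3, 1 rose and 5 fell, and without shIFI16 replicate 1, 4 rose and 5 fell. Over all 12567 genes tested, 16.6% were raised and 16.3% lowered, with a median of 0.02. Groups were separated upward in 6 and downward in 3 of the 42, HIST1H2AI among the latter, where 23.4% and 21.4% of all tested genes were. An unadjusted p under 0.05 was reached by 8 of the 42, against 42.4% of all genes. The median SE was 0.14 for the 16 genes with a mean of at least 5 TPM in a group and 0.27 for the lower ones, so smaller differences of the scarce genes were not detectable with these libraries. Summed over all 71 genes, the level was 350, 370 and 397 TPM in shIFI16 libraries, against 347, 346 and 346 TPM in shNC libraries. All shIFI16 sums lay above the shNC sums, at a ratio of only 1.07. By class, H2B sums separated (149, 159 and 155 TPM in shIFI16 and 126, 131 and 137 TPM in shNC libraries), and the H1, H2A, H3 and H4 sums overlapped.

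HIST1H2BC changed most clearly after the knockdown. It stood at 20.1, 17 and 25.3 TPM in shIFI16 libraries, against 6.23, 5.74 and 8.06 TPM in shNC libraries. The groups were far apart, and the log2 difference of 1.5 (SE 0.15, limma adjusted p = 4.3e-06) passed under all 13 alternatives tried. Its difference of 14.1 TPM between group means may be set beside the 23.0 TPM by which the H2B sums differed. HIST1H2AC, which starts 246 bases away on the other strand, had 38.7, 48.3 and 55.3 TPM in shIFI16 libraries and 43.4, 39.0 and 44.0 TPM in shNC libraries. Its groups overlapped and it did not pass (log2 difference 0.15, SE 0.11, limma adjusted p = 0.32), although without shIFI16 replicate 1 it did, at a log2 difference of 0.29 (limma adjusted p = 0.014). Whether the responses of these neighbours differ was not tested. In radioresistant against control cells both had risen.

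The other rises were small in level. HIST1H2AM had 6.54, 4.65 and 7.96 TPM in shIFI16 libraries, against 2.48, 3.04 and 1.02 TPM in shNC libraries (log2 difference 1.25, SE 0.29, limma adjusted p = 0.015). Without shNC replicate 1 its limma adjusted p was 0.063, without shIFI16 replicate 1 it was 0.13 and without shIFI16 replicate 3 it was 0.051. Its head-to-head partner HIST1H2BO averaged 4.66 TPM in shIFI16 and 5.03 TPM in shNC cells and did not pass. HIST1H4E had 4.14, 3.25 and 5.14 TPM in shIFI16 and 2.26, 2.79 and 3.06 TPM in shNC libraries (log2 difference 0.47, limma adjusted p = 0.023). Leaving out shNC replicate 1, shNC replicate 2 or shIFI16 replicate 3 lost that call, with limma adjusted p of 0.079, 0.054 and 0.097. Of 11 H2A and H2B pairs 5 had both genes tested here. Both were called in 0 of these and 1 gene in 2, where of all 42 tested members 3 rose and 3 fell. In radioresistant cells 6 pairs had both genes tested, with both called in 2, 1 gene in 1 and no gene in 3. Among those 2 pairs is that of HIST3H2A with HIST3H2BB, whose direction the filter set.

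Of the falls, HIST2H3D was the largest. This H3 gene of the chromosome 1 cluster had 1.12, 2.04 and 1.19 TPM in shIFI16 libraries, against 5.32, 3.91 and 4.83 TPM in shNC libraries. No shIFI16 value reached the lowest shNC value, and the gene fell by 1.23 (SE 0.16, limma adjusted p = 2.1e-05), a call kept under all 12 alternatives in which it was tested. In radioresistant cells it had not passed, at 2.69, 2.78 and 5.00 TPM against 2.71, 3.42 and 1.35 TPM in control libraries. HIST2H2AA3 had 14.8, 15.6 and 15.3 TPM in shIFI16 libraries, against 20, 22.2 and 17.8 TPM in shNC libraries. Its groups did not overlap, and it fell by 0.37 (SE 0.10, limma adjusted p = 0.010), though not past the threshold without shNC replicate 2 (limma adjusted p = 0.069). HIST1H2AI had 0.353, 0.386 and 0.749 TPM in shIFI16 libraries, against 2.01, 1.23 and 1.1 TPM in shNC libraries, and fell by 0.70 (SE 0.17, limma adjusted p = 0.0054). With every shIFI16 library under 1 TPM, it entered the test only through shNC libraries, so the filter set its direction.

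The 20 genes raised in radioresistant cells, with HIST3H2BB and its filter-set direction among them, were all tested after the knockdown as well. Of them, 1 rose (HIST1H2BC), 1 fell (HIST2H2AA3) and 18 did not pass. Among those that did not pass, HIST1H2BK averaged 69.7 ± 2.98 TPM in shIFI16 and 61.9 ± 5.03 TPM in shNC cells, with groups that did not overlap (limma adjusted p = 0.10). HIST2H4B averaged 24.8 ± 3.49 TPM in shIFI16 and 26.5 ± 3.21 TPM in shNC cells (limma adjusted p = 0.55). HIST3H2A averaged 34.2 ± 2.2 TPM in shIFI16 and 33.3 ± 2.62 TPM in shNC cells (limma adjusted p = 0.76). HIST1H1C averaged 23.0 ± 3.94 TPM in shIFI16 and 25.9 ± 2.19 TPM in shNC cells (SD, n = 3 each in all these, limma adjusted p = 0.27), and fell without shIFI16 replicate 3 (limma adjusted p = 0.028). Single libraries changed the call of other genes too. Without shIFI16 replicate 1 the pair HIST2H3A and HIST2H3C fell by 0.68 (limma adjusted p = 0.034). HIST1H3H rose by 0.59 without shNC replicate 2 (limma adjusted p = 0.031), HIST2H2BF by 0.46 without shIFI16 replicate 2 (limma adjusted p = 0.027) and HIST2H2BC by 0.37 without shNC replicate 3 (limma adjusted p = 0.049). The tables of the hairpin cells and of the other cells were normalized separately, so no test was made between them. Side by side, HIST1H2AC averaged 42.1 TPM in shNC cells, which are radioresistant by their label, 117 TPM in radioresistant cells without a hairpin and 41.1 TPM in control cells.

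**Figure D3:**
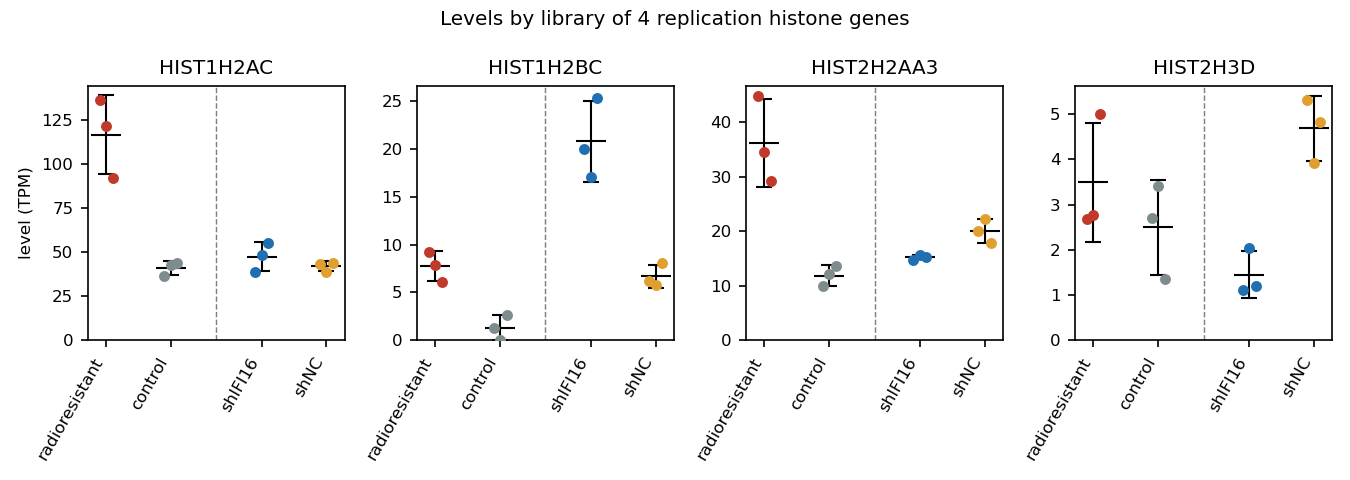
Levels in TPM (y axis) of HIST1H2AC, HIST1H2BC, HIST2H2AA3 and HIST2H3D in each library (points), with the mean and SD as black bars. The dashed line parts the tables, which were normalized separately. HIST1H2BC reaches 17 to 25.3 TPM in shIFI16 libraries, above every shNC library, whereas HIST1H2AC overlaps between these groups.

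Genes that make and process histone mRNA were called about as often upward as all genes (16.9%) in radioresistant cells. Of 25 tested, 5 rose and 3 fell, with 3 rising without control replicate 2 and 5 falling without control replicate 3. SLBP, the stem-loop binding protein, averaged 124 ± 12.9 TPM in radioresistant and 120 ± 3.07 TPM in control cells (SD, n = 3 each), and NPAT, the coactivator, 13.4 ± 1.91 TPM in radioresistant and 14.5 ± 3.35 TPM in control cells. Neither passed (limma adjusted p = 0.82 and 0.71). CSTF2, a subunit of the cleavage stimulation factor that also acts in polyadenylation, rose by 0.71, and LSM11, a part of the U7 particle that directs histone 3′ processing, rose by 0.58. PAPD5, a terminal nucleotidyltransferase, fell by 0.87, and LSM1, of the cytoplasmic decay complex, fell by 0.49. After the knockdown, where 16.6% of all genes rose and 16.3% fell, 8 of 25 rose and 1 fell, with SLBP at 125.3, 119 and 129 TPM in shIFI16 libraries, against 97.8, 100.2 and 98.2 TPM in shNC libraries. It rose by 0.33 (SE 0.06, limma adjusted p = 9.0e-04), and CASP8AP2, a partner of NPAT, rose by 0.42. The number raised after the knockdown was 5 without shNC replicate 3.

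Of 42 S phase genes 12 rose and 3 fell in radioresistant cells, where 16.9% of all genes rose and 27.0% fell, with a median log2 difference of 0.15. CDT1, a licensing factor, rose by 1.14 to 82.0 ± 6.49 TPM in radioresistant cells, against 37.0 ± 7.03 TPM in control cells (SD, n = 3 each). MCM6, of the replicative helicase, fell by 0.74. PCNA, the sliding clamp, did not pass, at 352 ± 29.6 TPM in radioresistant and 333 ± 28.7 TPM in control cells (limma adjusted p = 0.59), nor did E2F1, the S phase transcription factor (limma adjusted p = 0.77). The 12 became 6 without control replicate 2, 7 without radioresistant replicate 2 and 4 without radioresistant replicate 3. After the knockdown, beside 16.6% and 16.3% of all genes, 20 of 42 S phase genes rose and 1 fell (0 fell without shNC replicate 2 and 2 without shIFI16 replicate 1), among them CCNE2, cyclin E2, by 0.71 and PCNA by 0.31, while 16 of 24 mitosis genes fell, UBE2C by 0.49. In radioresistant cells 5 of the 24 mitosis genes rose and 2 fell, and 3 rose without radioresistant replicate 2 or 3. The number that fell was 7 without control replicate 3 and 1 without any other single library except radioresistant replicate 2. The part of the cell cycle genes in the histone levels was not tested.

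Of 9 tested replication-independent histone variants, which are not confined to S phase, 2 rose and 3 fell in radioresistant cells. These shares were near those of all genes (16.9% and 27.0%). The number that rose was 4 without control replicate 3 and 1 without any other single library. H1F0, the linker histone of resting and differentiating cells, had 363, 289 and 242 TPM in radioresistant libraries, against 134, 150 and 162 TPM in control libraries, and rose by 0.98 (SE 0.15, limma adjusted p = 4.4e-04). H2AFZ, which encodes H2A.Z, rose by 0.34, while H3F3B, one of the H3.3 genes, fell by 0.55 to 568 ± 17.5 TPM in radioresistant cells, against 832 ± 30.6 TPM in control cells (SD, n = 3 each), and H2AFV and H3F3C fell by 0.45 and 0.94. After the knockdown 2 of 10 rose, H1F0 by 0.27 among them (1 rose without shNC replicate 2 or 3 or shIFI16 replicate 1 or 2), and 3 fell, including the centromeric variant CENPA by 0.52. Of 24 chaperones, which carry histones to DNA, 5 rose and 2 fell in radioresistant cells, with 5 falling without control replicate 3 and 1 without any other single library except radioresistant replicate 2. After the knockdown 10 rose and 1 fell, beside 16.6% and 16.3% of all genes. CHAF1B of the replication-coupled assembly factor rose by 0.77 and HIRA, which deposits H3.3, by 0.80 in radioresistant cells, and NASP, which stores H3 and H4, rose by 0.35 after the knockdown. These gene lists were described by their counts only.

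RNA without a poly(A) tail was followed beside the histones. Its summed level over 423 listed small RNAs was 2973, 916 and 4125 TPM in radioresistant libraries, against 844, 2771 and 3420 TPM in control libraries. These groups overlapped. Of 13 tested, 1 rose (RMRP) and 0 fell, beside 16.9% and 27.0% of all genes. None rose without control replicate 2 or radioresistant replicate 1, while 2 fell without control replicate 1 and 1 without radioresistant replicate 1. In the hairpin cells the sum was 8208, 11570.5 and 19865 TPM in shIFI16 libraries and 19980, 7834 and 8537 TPM in shNC libraries, again with overlap. Of 29 tested, 0 rose and 0 fell, beside 16.6% and 16.3% of all genes, with a median log2 difference of -0.23. With 1 library left out up to 2 rose and up to 2 fell. The part of such RNA in the histone levels was not tested.

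**Figure D4:**
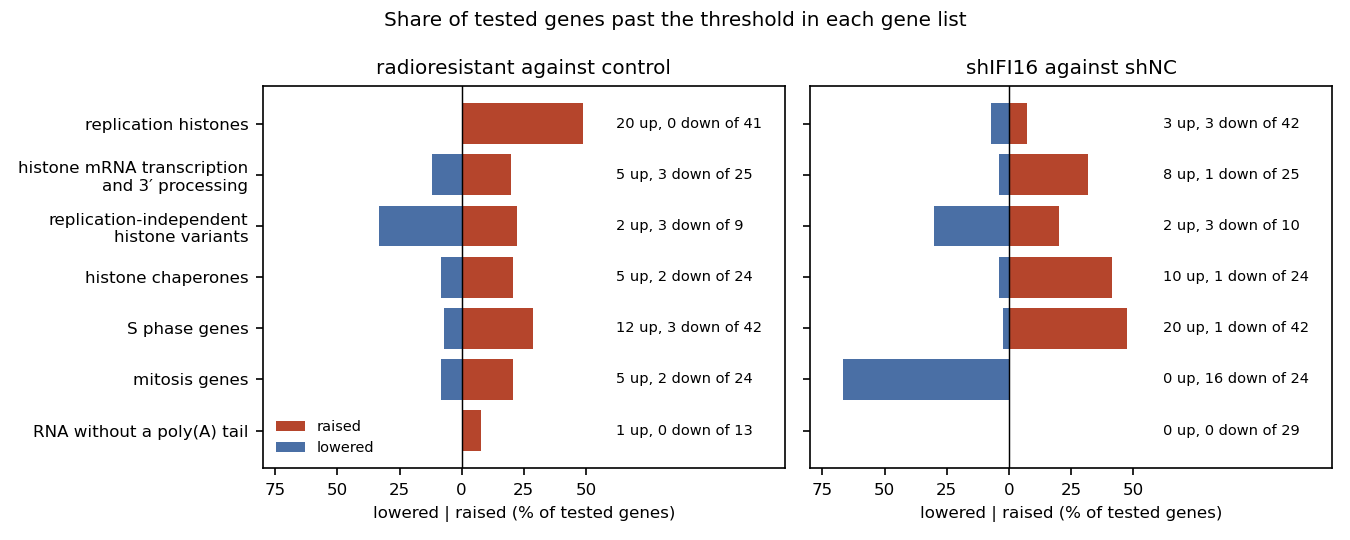
Share of tested genes that passed the threshold upward (right of 0) and downward (left of 0), in percent, for the replication histone genes and 6 related lists, in radioresistant against control cells and in shIFI16 against shNC cells. Replication histones show 20 raised and 0 lowered of 41 in radioresistant cells, and 3 raised and 3 lowered of 42 after the knockdown, where S phase genes show 20 raised of 42. The raised histones on the left include HIST3H2BB and the lowered on the right HIST1H2AI, whose directions were set by the filter.

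ATAC-seq gave 12877 summits in the radioresistant library and 2454 in the control library, each called by the authors. Of 63 replication histone genes with a mapped start, 12 had a summit within 1000 bases in the radioresistant library and 2 in the control library. Over all 34942 gene starts the shares were 17.8% and 3.37%, close to the 19.0% and 3.17% of the histone genes. Of the 12, 7 were raised in radioresistant cells (HIST1H1C, HIST1H2AC, HIST1H2BC, HIST1H4D, HIST2H4B, HIST3H2A and HIST3H2BB), 3 were tested and did not pass (HIST1H2AG, HIST1H2BJ and HIST1H3E) and 2 were not tested (HIST1H2AB and HIST1H2BI). Of all tested members 20 of 41 were raised, and of all tested genes 16.9%. HIST3H2BB had its direction set by the filter. The 2 in the control library were HIST1H2BD and HIST2H4B, both raised in radioresistant cells. In the radioresistant library the summit nearest to HIST1H2BD lay 30793 bases past its start. Head-to-head neighbours such as HIST1H2AC and HIST1H2BC shared a summit. Among the summits within 1000 bases of these starts, that of HIST2H4B had the highest score, 9.53 as the authors' −log10 q-value, 55 bases past its start in the radioresistant library, and a summit 197 bases before its start in the control library scored 3.36. With 1 library per condition and unequal numbers of summits, no test was made.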

How the data were processed

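RNA was measured in 12 libraries of U251MG cells and open chromatin in 2. Columns of RNA values carry codes. UN and UR were read as control and radioresistant from the names of the ATAC-seq files, and URN and URS as shNC and shIFI16, with replicate numbers as in the titles. The authors deposited TPM in both RNA tables, although the files are named as counts: each column summed to 1000000. Per the submitters' processing notes, hg38 was the build, and featureCounts, Cufflinks 2.2.1, TopHat and Trim Galore 0.6.6 are listed with no role or order. For the TPM, no tool, annotation or strand setting was found in the labels or headers. The notes list Bowtie2 2.2.5, SAMtools 1.10 and MACS2 2.1.4 for ATAC-seq, and the authors deposited summits with a −log10 q-value as score, by the layout of the file.

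Date-like gene names, 28 per file, were dropped. A gene was tested if 3 or more of 6 libraries reached 1 TPM. The test was limma 3.58.1 (R 4.3.3, trended and robust moderation, two-sided) on log2(TPM + 1), within each table and adjusted over all genes tested. With this pseudocount, differences of scarce genes come out too small. Named genes were the 4 highest of each class and all members past the threshold with a mean of at least 2 TPM, up to 4 per related list by smallest adjusted p, and SLBP, NPAT, E2F1, PCNA, H2AFZ, H3F3B and H1F0. HIST1H2AI, HIST1H2BO, HIST2H2AB, HIST1H2AB, HIST1H2AD, HIST1H2AG, HIST1H2BI, HIST1H2BJ, the butyrophilin genes, TRIM38, ABT1, ZNF322 and LOC100131289 were added after their values were seen. Members and lists were chosen with earlier results of these data known. All 71 symbols were matched to RefSeq (GRCh38.p14) by symbol or synonym, with HIST1H2BC, whose name is also listed for a neighbour, given the entry that no other member holds. Deviations from the group means correlated between same-numbered libraries at -0.38, 0.24 and 0.08 in the first table and 0.22, 0.09 and 0.03 in the second, so the numbers were not taken to pair libraries. Alternatives were other scalings, pseudocounts, filters and moderation, a replicate block and each library left out.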

Additional observations from a re-analysis of the deposited data

How the results depend on the processing

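The number of replication histone genes raised in radioresistant cells lay between 16 and 23 under the alternatives that kept the genes tested or tested more, and was 12 with a filter at 5 TPM, which tests fewer genes. Leaving out 1 library gave 17 to 22. The number lowered was 0 except without a filter, where HIST2H2AB, under 1 TPM in every library, made it 1. Median-ratio scaling moved the median of all genes by 0.12 (log2) and raised 22. After the knockdown, the filter at 5 TPM left 1 raised and 1 lowered, and leaving out 1 library gave 1 to 4 raised and 2 to 5 lowered. The lowest number raised, 1, came without shIFI16 replicate 3. The number lowered was 5 without shIFI16 replicate 1 and 5 without shIFI16 replicate 3. With the replicate block, 19 rose and 0 fell in radioresistant cells and 3 rose and 4 fell after the knockdown, with HIST1H2AM not past the threshold (limma adjusted p = 0.15) and HIST1H2BK past it (limma adjusted p = 0.039). Median-ratio scaling raised 9 mitosis genes in radioresistant cells, and the replicate block raised 13 histone mRNA processing genes after the knockdown. The log2 ratio of the summed levels, 0.99 in radioresistant cells, lay between 0.90 and 1.11, and that after the knockdown, 0.10, between 0.06 and 0.15.

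Some genes that did not pass as reported changed sign. In radioresistant cells HIST1H1E ranged from -0.22 to 0.49 (log2) with 1 library left out. After the knockdown the ranges were -0.28 to 0.31 for HIST1H1E, -0.19 to 0.30 for HIST1H3D, -0.21 to 0.15 for HIST1H3G, -0.0277 to 0.95 for HIST1H4D, -0.10 to 0.49 for HIST1H4H, -0.30 to 0.46 for HIST2H2BF, -0.65 to 0.0267 for HIST3H2BB, -0.29 to 0.12 for HIST1H4C, -0.0187 to 0.0912 for HIST3H2A, -0.10 to 0.24 for HIST1H2BD and -0.20 to 0.00797 for HIST2H4B. With a pseudocount of 0.1, HIST1H1E was 0.0138 and HIST1H3D 0.0200, against -0.02 and -0.01 with 1. HIST2H2BF passed at 0.46 without shIFI16 replicate 2 (limma adjusted p = 0.027). The causes were not tested. TPM keep no depth, so the counting error of the scarce genes is unknown.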
